A study of Mus musculus with 16 samples.

Results

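Tight junctions seal the apical ends of epithelial cells, and 9 genes of these junctions were followed here in the mouse cochlea: *Cldn6*, *Cldn9*, *Cldn14*, *Cldn1*, *Ocln*, *Marveld2*, *Ildr1*, *Tjp1* and *Tjp3*. A gene was taken through the probesets that the platform table pairs with its symbol alone, with the brightest probeset over all arrays standing for it. Each of the 9 genes has exactly 1 such probeset, so these are 9 of 19937 genes and 9 of 34760 probesets. RNA came from FVB/NCrl mice, either WT or homozygous for a transgene (Tg/Tg) that drives *Mir183*, *Mir96* and *Mir182* from the core human GFAP promoter, with WT littermates as the controls. The arrays held microdissected organ of Corti (OC) at P5 (5 Tg/Tg and 5 WT samples) and cochlea at P18 (3 Tg/Tg and 3 WT samples). The study asked how the misplaced hair cell microRNAs altered the transcripts of the sensory epithelium. The transgenic mice descend from 1 founder line, and the study located microRNAs driven by this promoter in supporting cells, the spiral limbus and Schwann cells at P18. Between the ages the dissected tissue changed with the age, so the effects of the tissue and of the age cannot be told apart.

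In the organ of Corti, hair cells and supporting cells are joined at their apices into the reticular lamina, which keeps the potassium-rich endolymph above apart from the perilymph around the cell bodies. Claudins form the strands between neighbouring cells, and occludin runs along them. At the corners where several cells meet, the angulin *Ildr1* recruits tricellulin, the product of *Marveld2*, and beneath the membrane the zonula occludens proteins tie the strands to actin. Mutations of *Cldn9*, *Cldn14*, *Marveld2*, *Ildr1* and *Ocln* cause deafness in mice, and several of these genes are known deafness genes in people as well.

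Values are the deposited normalized log2 signals of 1 array per sample, and a difference of 1 is a doubling of signal. All 9 genes lay above 4.54, the lowest lower quartile of any array, on every array. Pearson correlations between arrays of 1 age were 0.973 to 0.992 (P5) and 0.990 to 0.995 (P18). The transgene elements *Mir182*, *Mir96*, *Mir183* and *Prm1* were higher in Tg/Tg at both ages (4 of 4 in each), which follows the sample names used for grouping, although other label fields conflict with those names. Of the P5 arrays, Tg/Tg replicate 1 and WT replicates 2 to 5 had high signals of the Y-linked *Kdm5d* (8.03 to 8.49) and the other 5 had low ones (4.26 to 4.73), so sex and genotype are largely confounded at P5. At P18 *Kdm5d* was intermediate on every array (6.63 to 7.04). Nothing states whether an array holds 1 animal or a pool, so the p-values measure the spread between these samples, which may be technical. In bulk RNA, fewer cells of a type and less RNA per cell cannot be told apart.

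**Figure D1:**
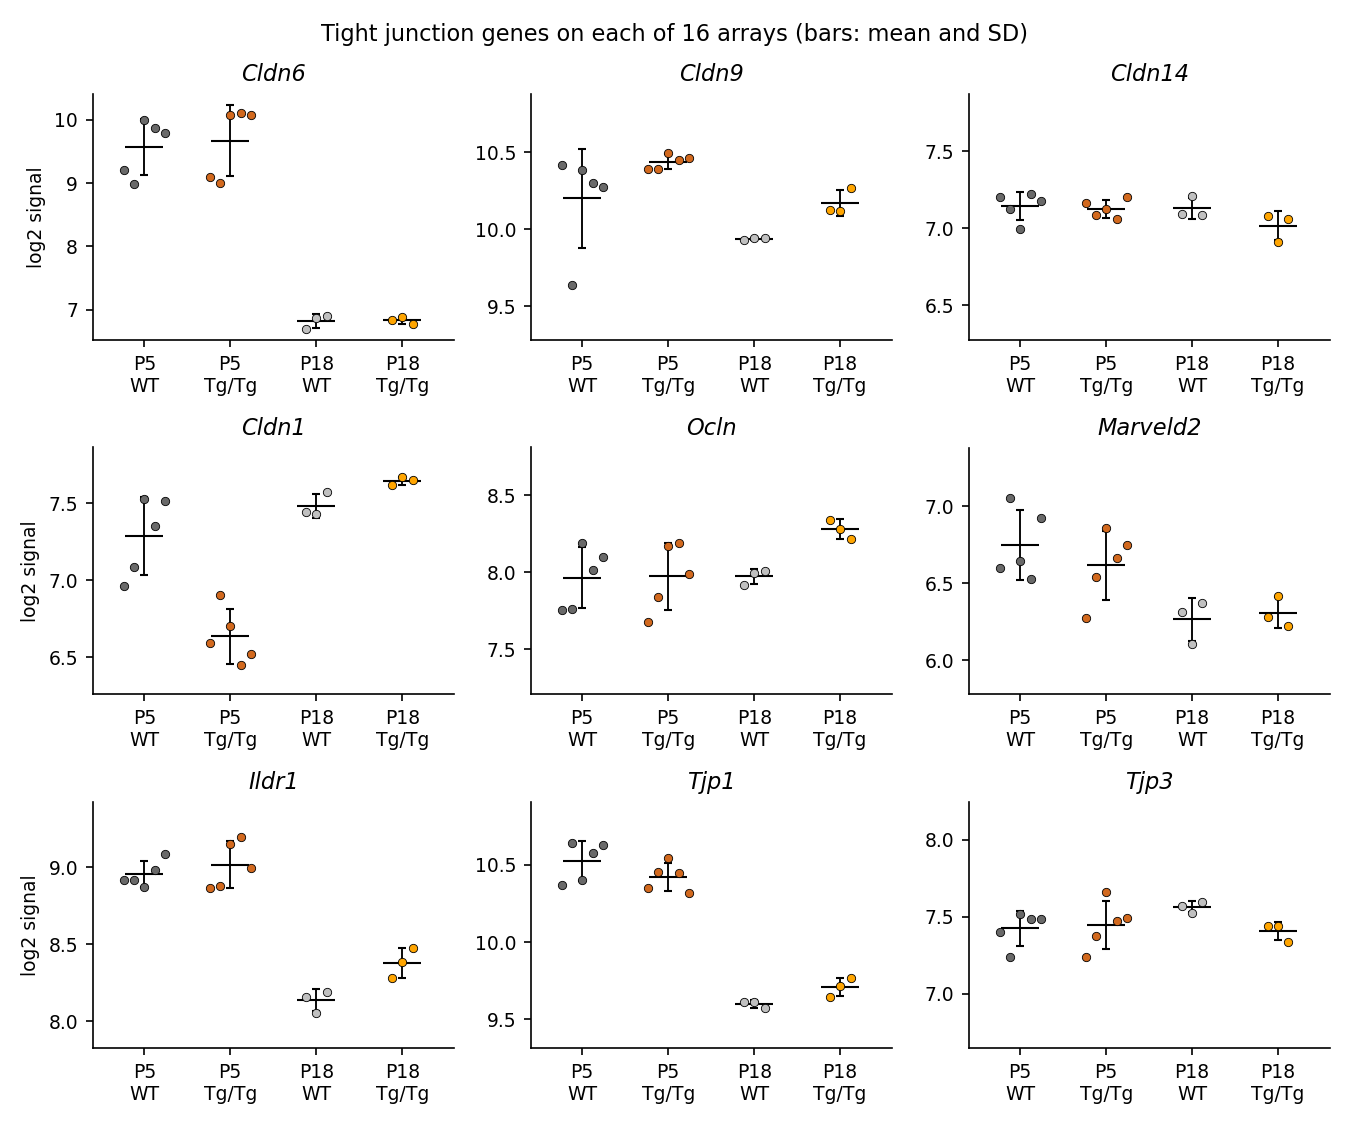
Log2 signal (y axis) of each of the 9 tight junction genes on every array, grouped by age and genotype (x axis); each point is 1 array and the bars give the group mean and SD. *Cldn6*, *Ildr1*, *Tjp1* and *Marveld2* lie lower at P18 than at P5 in WT, while in Tg/Tg the *Marveld2* values overlap between the ages. In *Cldn1* the P5 Tg/Tg arrays (6.45 to 6.91) lie under every P5 WT array (6.96 to 7.53).

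*Cldn6*, a claudin of embryonic and immature epithelia, had the largest difference among the 9 genes: in WT its signal was 6.72-fold lower in the P18 cochlea than in the P5 OC. In the WT OC at P5 it measured 9.20, 8.99, 9.99, 9.88 and 9.79 on replicates 1 to 5, and in the WT cochlea at P18 it measured 6.70, 6.87 and 6.90. The groups do not overlap, and the log2 change was -2.75 (standard error 0.28, adjusted p = 5.3e-07 in limma). In Tg/Tg it measured 9.10, 9.01, 10.08, 10.10 and 10.07 at P5 and 6.83, 6.88 and 6.78 at P18. At P5 replicates 1 and 2 of both genotypes (8.99 to 9.20) lay under replicates 3 to 5 of both (9.79 to 10.10), a spread within each group that is larger than the difference between genotypes. The mean over the bone markers split in the same way, at 9.24 to 9.68 on replicates 1 and 2 of both genotypes and 8.17 to 8.42 on replicates 3 to 5, and its part in the *Cldn6* spread was not tested. That difference was 0.10 at P5 (95% interval -0.41 to 0.61) and 0.01 at P18 (-0.65 to 0.67), and neither passed the test.

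*Cldn9*, a hair cell and supporting cell claudin whose loss leads to hair cell death and deafness, kept a high signal at both ages. In WT it measured 10.42, 9.64, 10.38, 10.30 and 10.27 at P5 and 9.93, 9.95 and 9.94 at P18. All P18 values lie under 4 of the P5 values, and replicate 2 of the P5 WT group lies under all others at either age. The log2 change of -0.26 (standard error 0.13) did not pass (adjusted p = 0.12 in limma). Without replicate 2 it was -0.40 and passed (adjusted p = 1.2e-04 in limma), so that 1 array decides the call. In Tg/Tg *Cldn9* measured 10.39, 10.39, 10.50, 10.45 and 10.47 at P5 and 10.13, 10.12 and 10.27 at P18. The difference from WT was 0.24 at P5 (95% interval -0.01 to 0.48) and 0.23 at P18 (-0.09 to 0.55), neither past the test, and the P18 groups do not overlap. Without WT replicate 2 the P5 difference was 0.095.

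*Cldn9* lies directly beside *Cldn6* on chromosome 17 in the RefSeq gene order, with no gene listed between them. Their P18 minus P5 changes in WT, -0.26 and -2.75, have 95% intervals that do not overlap (-0.55 to 0.02 and -3.34 to -2.16), although the difference between the genes was not tested.

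*Cldn14*, a claudin of the reticular lamina whose loss kills hair cells soon after the onset of hearing, moved least of the 9 genes over the 16 arrays. Its values ran from 6.99 to 7.22 in WT and from 7.06 to 7.20 in Tg/Tg at P5, and from 7.09 to 7.21 in WT and from 6.91 to 7.08 in Tg/Tg at P18. No comparison passed. The change from P5 to P18 in WT was -0.02 (95% interval -0.17 to 0.14), and the genotype difference was -0.02 at P5 (-0.15 to 0.12) and -0.11 at P18 (-0.28 to 0.06).

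*Cldn1*, best known from the barrier of the skin and also present in the perineurium of nerves, was the member that fell in Tg/Tg at P5. Tg/Tg samples measured 6.60, 6.91, 6.71, 6.45 and 6.52 and WT samples 6.96, 7.09, 7.53, 7.35 and 7.52. Every Tg/Tg value lies under every WT value, with Tg/Tg replicate 2 and WT replicate 1 the nearest pair. The log2 change was -0.65 (standard error 0.11, 1.57-fold, adjusted p = 0.0087 in limma). This made 1 of 9 genes lower and 0 of 9 higher, where 0.549% of all probesets were called lower and 0.0604% higher at P5. Groups that do not overlap were found for 1 of the 9 genes and for 1.67% of all probesets, and 1 of the 9 had an unadjusted p under 0.05, against 16.4% of all probesets.

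The *Cldn1* call at P5 held when any 1 array was left out (-0.74 to -0.59). Among the settings in which it did not hold were a fit that carried the mean of Y-linked genes as a covariate (-0.56, adjusted p = 0.23 in limma) and a fit of each age alone (adjusted p = 0.10). Among the arrays with high Y-linked signal, Tg/Tg replicate 1 measured 6.60 and the 4 WT samples 7.09 to 7.53. Among those with low signal, the 4 Tg/Tg samples measured 6.45 to 6.91 and WT replicate 1 measured 6.96. Within a set the Y-linked signal is alike, but 1 genotype is held by a single array. Its spread there cannot be measured, and the difference within a set was not tested. Without replicates 3 to 5 of both genotypes the change was -0.27 and did not pass (adjusted p = 0.44 in limma), and without replicates 1 and 2 it was -0.91. Replicates 1 and 2 hold high and low Y-linked signal in each genotype. Replicates 3 to 5 are all low in Tg/Tg and all high in WT, so in the change of -0.91 sex and genotype are fully confounded.

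At P18 *Cldn1* measured 7.62, 7.67 and 7.65 in Tg/Tg and 7.44, 7.43 and 7.57 in WT, so the Tg/Tg values were the higher ones there. That difference was 0.16 (95% interval -0.14 to 0.47) and did not pass. The genotype effect at P18 minus that at P5 was 0.82 (standard error 0.18, 95% interval 0.43 to 1.20, adjusted p = 0.058 in limma) and did not pass. None of the 9 genes passed for this difference of effects, where 0.541% of all probesets were called higher and 0.0547% lower. At an unadjusted p under 0.05 it was 1 of 9, against 14.3% of all probesets. Leaving out P5 Tg/Tg replicate 2, Tg/Tg replicate 3, WT replicate 1 or WT replicate 2 moved *Cldn1* past the threshold (adjusted p = 0.034, 0.044, 0.016 and 0.048 in limma). WT replicate 1 was the only P5 WT array with low Y-linked signal, so its omission confounds sex and genotype further. With the Y-linked covariate the *Cldn1* difference of effects was 0.71 (adjusted p = 0.30 in limma), and without replicates 3 to 5 of both genotypes it was 0.44 (adjusted p = 0.27 in limma).

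A further claudin moved in the same samples. *Cldn19*, the claudin of Schwann cell membranes, measured 8.19, 8.19, 7.70, 7.42 and 7.67 in Tg/Tg and 9.72, 9.77, 10.02, 9.89 and 9.92 in WT at P5. No values overlap, and the change was -2.03 (standard error 0.13, adjusted p = 2.8e-07 in limma). At P18 the Tg/Tg values of 9.08, 9.19 and 9.23 lay above the WT values of 8.80, 8.82 and 8.90, a difference of 0.33 that did not pass (adjusted p = 0.62). All 7 measured Schwann cell myelin markers of 10 listed were lower in Tg/Tg at P5, with a mean over the list of 7.60 to 8.31 in Tg/Tg and 9.63 to 9.80 in WT. At P18 the list's mean was 9.38 to 9.48 in Tg/Tg and 9.06 to 9.14 in WT, with 1 of 7 called, *Pmp2*, which was higher. The part of the Schwann cell markers in the *Cldn1* difference was not tested.

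**Figure D2:**
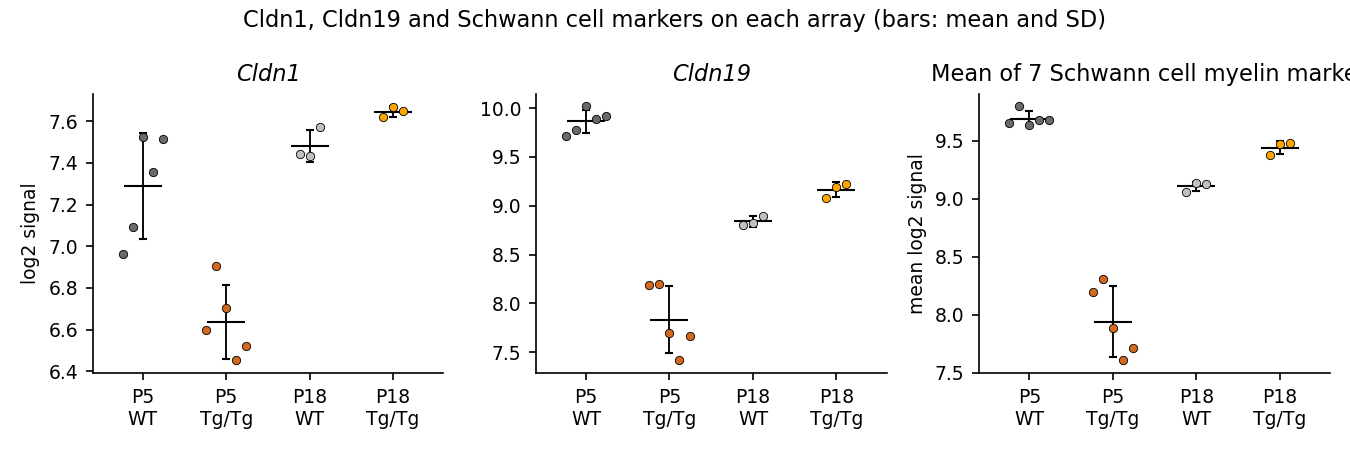
Log2 signal of *Cldn1* and *Cldn19* and the mean log2 signal of 7 Schwann cell myelin markers (y axes) on every array by group (x axis), with group mean and SD as bars. All 3 are lower in P5 Tg/Tg than in P5 WT without overlap, and all 3 lie slightly higher in Tg/Tg than in WT at P18.

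*Ocln*, which encodes the strand protein occludin, did not differ detectably by age in WT. It measured 7.76, 7.76, 8.19, 8.01 and 8.10 at P5 and 7.92, 8.0 and 8.01 at P18, within the same span, and the change was 0.01 (95% interval -0.26 to 0.27). In Tg/Tg it measured 7.68, 7.84, 8.17, 8.19 and 7.99 at P5, a difference from WT of 0.01 (-0.22 to 0.24). At P18 Tg/Tg samples measured 8.34, 8.28 and 8.22, all above WT. This was the largest genotype difference among the 9 genes at P18, 0.31 (standard error 0.14, 1.24-fold), and it did not pass after adjustment (adjusted p = 0.55 in limma).

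*Marveld2* encodes tricellulin, and in the RefSeq order no protein-coding gene lies between it and *Ocln* on chromosome 13. In WT it measured 6.60, 7.05, 6.65, 6.53 and 6.92 at P5 and 6.31, 6.11 and 6.37 at P18. The groups do not overlap and the change was -0.48 (standard error 0.14, adjusted p = 0.0080 in limma). The call was lost when quantile normalization was repeated (-0.29, adjusted p = 0.094) and without P18 WT replicate 2 (-0.41, adjusted p = 0.051). Tg/Tg samples measured 6.27, 6.54, 6.86, 6.66 and 6.75 at P5 and 6.28, 6.42 and 6.22 at P18. They overlapped WT at both ages, with differences of -0.13 (95% interval -0.39 to 0.12) and 0.04 (-0.29 to 0.37).

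*Ildr1*, the angulin that marks tricellular corners, was 1.76-fold lower in the P18 cochlea of WT. Its signal was 8.92, 8.92, 8.87, 8.98 and 9.09 at P5 and 8.16, 8.06 and 8.19 at P18. The groups stand far apart, with a change of -0.82 (standard error 0.09, adjusted p = 1.3e-06 in limma). Tg/Tg samples measured 8.86, 8.88, 9.15, 9.20 and 8.99 at P5, overlapping WT (difference 0.06, 95% interval -0.10 to 0.23). At P18 they measured 8.28, 8.38 and 8.47, each above every WT value, and the difference of 0.24 (standard error 0.10) did not pass (adjusted p = 0.48 in limma) unless arrays were weighted by their quality (0.25, adjusted p = 0.042).

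*Tjp1* encodes ZO-1, the scaffold that binds claudins and occludin to actin, and it was 1.90-fold lower in the P18 cochlea of WT. It measured 10.37, 10.64, 10.41, 10.58 and 10.63 at P5 and 9.61, 9.61 and 9.57 at P18. No values overlap, and the change was -0.93 (standard error 0.08, adjusted p = 1.1e-07 in limma). In Tg/Tg it measured 10.35, 10.45, 10.55, 10.45 and 10.32 at P5 and 9.64, 9.71 and 9.77 at P18. The genotype differences were -0.10 at P5 (95% interval -0.25 to 0.05) and 0.11 at P18 (-0.08 to 0.30).

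*Tjp3*, which encodes the related scaffold ZO-3, did not follow *Tjp1* to a lower signal. In WT it measured 7.40, 7.24, 7.52, 7.49 and 7.49 at P5 and 7.57, 7.53 and 7.60 at P18, a change of 0.14 (95% interval -0.05 to 0.33) that did not pass. In Tg/Tg it measured 7.24, 7.37, 7.66, 7.47 and 7.49 at P5 and 7.44, 7.44 and 7.34 at P18. The P18 Tg/Tg values all lie under those of WT, with a difference of -0.16 (-0.37 to 0.06) that did not pass either.

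**Figure D3:**
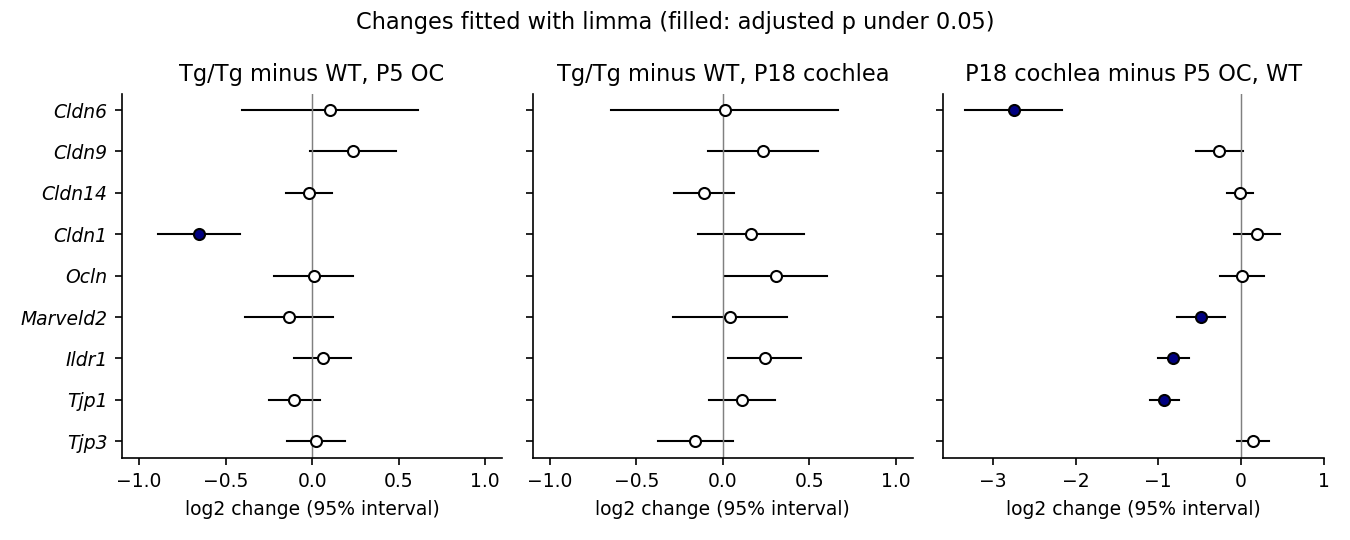
Log2 changes (x axes) of the 9 genes (y axis) in 3 comparisons, with 95% intervals as lines and filled points for an adjusted p under 0.05 in limma. *Cldn1* is the single filled point for genotype at P5 (-0.65), none is filled for genotype at P18, and *Cldn6*, *Marveld2*, *Ildr1* and *Tjp1* are filled for age and tissue in WT.

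Over the 9 genes, 4 were lower and 0 higher at P18 than at P5 in WT, where 30.2% of all probesets were lower and 19.8% higher. With a fold of at least 2 as a second condition, 1 gene (*Cldn6*) was lower, against 11.5% of all probesets. The median change was -0.26 over the 9 genes and -0.06 over all probesets. Repeated quantile normalization moved the median of all probesets to 0.09 and the calls from 6881 higher and 10491 lower to 11219 higher and 8811 lower. Under it 3 of the 9 genes were lower (*Marveld2* was not) and 0 higher.

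Markers of other cells moved with age and tissue in the same WT samples, where 30.2% of all probesets were lower and 19.8% higher. Hair cell markers were lower for 13 of 17 and higher for 2, supporting cell markers lower for 11 of 18 and higher for 4, and epithelial identity genes lower for 10 of 20 and higher for 2. Bone markers were higher for 8 of 8, blood cell markers for 8 of 8 and markers of marginal cells of the stria vascularis for 7 of 8. The mean over the hair cell list ran from 7.64 to 7.92 at P5 and from 7.14 to 7.17 at P18, and that over the blood cell list from 5.49 to 5.83 and from 11.04 to 11.07. The part of this tissue makeup in the tight junction differences was not tested.

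At P18, 0 of 9 genes were called between the genotypes in limma, where 0.383% of all probesets were called higher and 0.0604% lower. At an unadjusted p under 0.05 there were 2 of 9, *Ocln* and *Ildr1*, both higher in Tg/Tg, against 8.77% of all probesets. The groups did not overlap for 7 of the 9 genes, higher in Tg/Tg for *Cldn9*, *Cldn1*, *Ocln*, *Ildr1* and *Tjp1* and lower for *Cldn14* and *Tjp3*. The groups of 27.6% of all probesets did not overlap either at P18, so absence of overlap between 3 and 3 arrays was common there. The median change over the 9 genes was 0.11, against -0.02 over all probesets. In the same arrays 8 of 9 skeletal muscle markers were higher in Tg/Tg (list mean 8.65 to 8.73, against 6.21 to 6.24 in WT), and 6 of 7 brain granule neuron markers were lower (6.15 to 6.17, against 7.07 to 7.14). The part of these tissues in the P18 differences was not tested.

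For the 4 genes that fell from P5 to P18 in WT, and for *Cldn1*, the 250 bases before the transcription start show what their promoters hold. They are printed 5′ to 3′ on the strand of the gene, from RefSeq's annotation of build GRCm38.p6, and the first start listed was taken for *Marveld2*. Capitals mark GGGCGG (the GC box of Sp factors), CAGGTG (an E box of Snail and Zeb proteins) and TATAAA (the TATA box), each in either orientation.
Cldn6, chr17:23679115-23679364, plus strand: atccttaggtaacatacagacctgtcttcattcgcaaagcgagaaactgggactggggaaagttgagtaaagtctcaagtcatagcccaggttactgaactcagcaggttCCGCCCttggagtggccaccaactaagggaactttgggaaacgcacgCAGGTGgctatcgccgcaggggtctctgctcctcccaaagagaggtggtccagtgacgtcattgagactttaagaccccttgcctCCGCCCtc
Tjp1, chr7:65371245-65371494, minus strand: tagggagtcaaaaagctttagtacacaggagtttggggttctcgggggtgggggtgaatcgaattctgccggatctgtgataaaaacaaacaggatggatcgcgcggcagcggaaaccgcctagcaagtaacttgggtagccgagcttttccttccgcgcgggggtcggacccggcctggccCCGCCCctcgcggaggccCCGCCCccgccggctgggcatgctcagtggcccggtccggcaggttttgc
Ildr1, chr16:36693728-36693977, plus strand: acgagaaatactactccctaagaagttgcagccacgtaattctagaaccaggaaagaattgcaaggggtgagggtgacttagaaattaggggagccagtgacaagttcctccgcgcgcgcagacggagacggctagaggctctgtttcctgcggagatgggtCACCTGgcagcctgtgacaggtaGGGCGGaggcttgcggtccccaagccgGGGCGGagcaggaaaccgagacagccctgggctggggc
Marveld2, chr13:100616972-100617221, minus strand: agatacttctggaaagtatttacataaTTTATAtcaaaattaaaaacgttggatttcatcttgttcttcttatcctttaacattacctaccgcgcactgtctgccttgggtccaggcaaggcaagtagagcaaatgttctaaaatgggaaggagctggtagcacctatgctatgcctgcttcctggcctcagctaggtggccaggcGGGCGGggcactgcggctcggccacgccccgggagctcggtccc
Cldn1, chr16:26371840-26372089, minus strand: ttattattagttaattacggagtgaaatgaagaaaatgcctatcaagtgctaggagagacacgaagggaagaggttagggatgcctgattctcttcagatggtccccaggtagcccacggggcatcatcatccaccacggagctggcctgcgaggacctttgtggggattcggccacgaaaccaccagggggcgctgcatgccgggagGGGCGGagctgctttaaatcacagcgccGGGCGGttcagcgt

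The table of promoters held 8 of the 9 genes, all but *Cldn9*. The GC box was found in all 5 printed windows, and in 32.9% of the windows of all 27025 genes. In *Cldn6* its copies begin 140 and 8 bases before the start, in *Tjp1* 68 and 50, in *Ildr1* 65 and 38, in *Cldn1* 42 and 14, and in *Marveld2* 44. The E box was found in *Cldn6*, 93 bases before the start, in *Ildr1*, 88 bases before it, and also in *Tjp3*, 108 bases before it, whose signal did not fall. It was in 17.1% of all windows. TATAAA was found in *Marveld2*, far up at 223 bases, and in 13.0% of all windows. The Grainyhead-like motif AACCNGTT, searched in the same way, was in none of the 5 windows and in 1.71% of all. *Tjp1* had 22 CG pairs in its window, *Cldn1* and *Ildr1* 14 each, *Marveld2* 10 and *Cldn6* 9, against a median of 6 over all genes. Of the other 3 windows in the table, that of *Ocln* held a GC box and those of *Cldn14* and *Tjp3* held no GC box. These matches describe letters in a window and say nothing of binding.

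The other tight junction genes give the setting of the 9. Of 62 listed, 59 were analysed here. At P5, 0 were higher and 1 was lower in Tg/Tg, *Cldn19*, against 0.0604% and 0.549% of all probesets. At an unadjusted p under 0.05 there were 14 of 59, against 16.4% of all probesets. The largest change the other way at P5 was that of *Cldn11*, the claudin of stria basal cells, at 0.41, which did not pass (adjusted p = 0.20 in limma). It passed without P5 WT replicate 1 (0.56, adjusted p = 0.0048 in limma), since that array measured 10.03 and the other WT arrays 9.09 to 9.44, against 9.59 to 9.95 in Tg/Tg. Stria marginal cell markers moved with it: their mean was 8.07 on P5 WT replicate 1, 7.55 to 7.67 on the other WT arrays and 7.62 to 8.05 in Tg/Tg, and their part was not tested. WT replicate 1 was also the only P5 WT array with low Y-linked signal, so without it sex and genotype are confounded further. At P18, 0 of 59 were called in limma and 6 had an unadjusted p under 0.05, against 8.77% of all probesets. For the difference between the effects at P18 and P5, *Cldn19* was the 1 call (2.36, adjusted p = 1.4e-05 in limma). At P18 *Cldn10* had the largest change against the majority (-0.25, adjusted p = 0.42 in limma). In the difference of effects this was *Cldn17*, which was not above the lowest lower quartile on every array in any group, so no size is given for it.

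By age and tissue in WT, 14 of the 59 were higher and 27 lower at P18, with a median of -0.24, against 19.8% higher and 30.2% lower over all probesets. Among 21 other claudins, 5 were higher and 9 lower. *Cldn13*, a claudin known from blood-forming tissue, rose most, from 4.56 ± 0.22 (SD, n = 5) in the OC to 10.06 ± 0.03 (SD, n = 3) in the cochlea (adjusted p = 1.7e-13 in limma), and at P5 it was not above the lowest lower quartile on every array. With P5 values under that quartile set to it, the rise was 43.4-fold. Every P5 WT value (4.30 to 4.91) lay under the lower quartile of its own array (4.84 to 4.95). The fold is therefore no lower bound. Blood cell markers rose in the same samples, as given above. *Cldn11* rose by 1.31 and *Cldn10*, a claudin of ion-transporting epithelia, by 1.29 (adjusted p = 4.0e-06 and 4.4e-09 in limma). *Cldn12* had a change of -1.07 and *Cldn19* one of -1.02 (adjusted p = 2.2e-07 and 2.7e-05). *Cldn6* had the most negative change of all 25 claudin and claudin-domain genes measured.

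**Figure D4:**
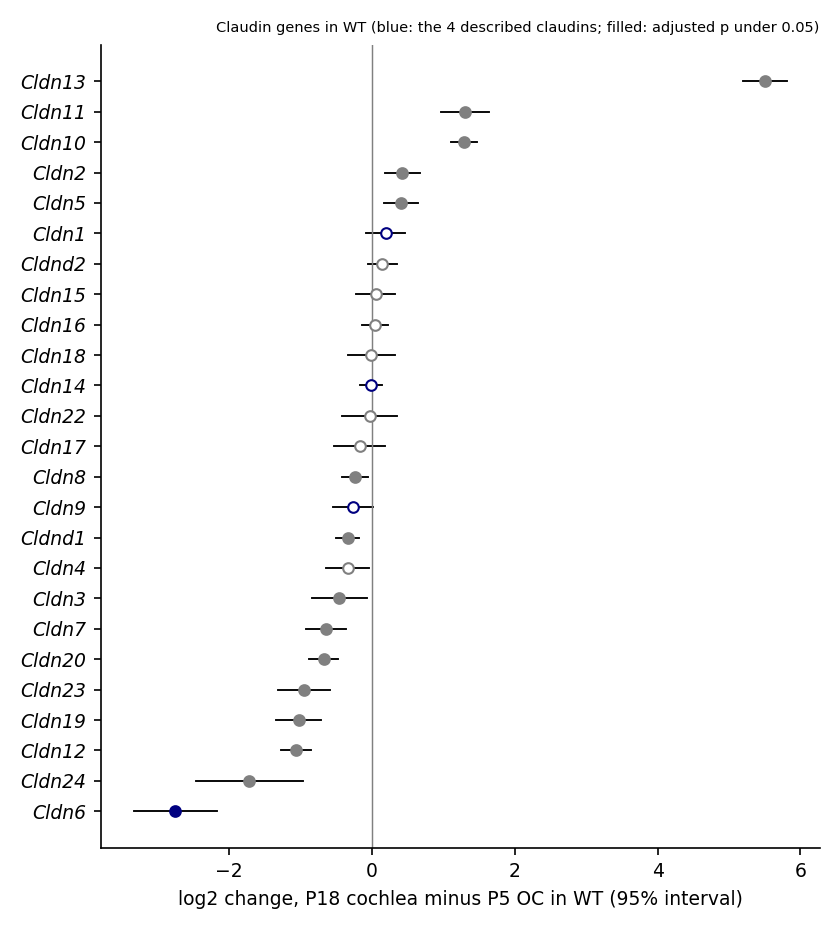
Log2 change from the P5 OC to the P18 cochlea in WT (x axis, 95% intervals as lines) for every measured claudin and claudin-domain gene (y axis), ordered by its change. Blue points are *Cldn1*, *Cldn14*, *Cldn9* and *Cldn6*, and filled points have an adjusted p under 0.05 in limma. *Cldn13* stands apart at the top, with P5 signal near the lower quartile of the arrays, and *Cldn6* (-2.75) at the bottom; *Cldn2*, *Cldn16*, *Cldn17* and *Cldn24* also had arrays at or under that quartile.

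The tricellular and MARVEL genes outside the 9 split evenly, with 2 of 4 higher and 2 lower. Over all probesets, 19.8% were higher and 30.2% lower between the ages in WT. *Marveld3*, a relative of occludin and tricellulin, had a change of -1.05 and *Lsr*, the angulin of most epithelia, of -0.48, while *Ildr2*, the remaining angulin, rose by 0.70 (adjusted p = 9.5e-07, 5.7e-04 and 7.3e-04 in limma). The last 2 were named after their values were seen. Among 26 other scaffold and polarity genes, 14 were lower and 4 higher, among them *Pard3* (-0.86), which orders apical polarity, and its partner *Pard6g* (0.66). Of 8 junctional adhesion molecules 3 were higher and 2 lower, and *Cxadr*, the receptor of coxsackie viruses and a junction protein, had the smallest p of the 27 falling genes (-1.47, adjusted p = 4.0e-09 in limma).

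Of 18 adherens junction and desmosome genes 8 were lower and 2 higher, where 30.2% of all probesets were lower and 19.8% higher. *Cdh3* (P-cadherin) changed by -1.63, *Nectin3* by -0.92 and *Nectin2* by -0.85, while *Cdh2* (N-cadherin) rose by 0.49 and *Dsp* (desmoplakin) by 0.36. Among the epithelial identity genes *Krt7*, a keratin of simple epithelia, rose by 2.09 and *Ehf* by 0.75, and *Esrp1*, which sets epithelial splicing, changed by -1.03, *Epcam* by -0.75 and *Spint1* by -0.71. *Tjp1* (-0.93) and *Ildr1* (-0.82) lay within the range of these named falling genes, which were picked by smallest p, and *Cldn6* lay beyond each. Over the full lists the median change was -0.23 (20 epithelial identity genes) and -0.19 (18 adherens junction and desmosome genes).

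The genes whose course over the 16 arrays came nearest to each member were sought among 19928 other genes, by the root mean square difference of mean-centred log2 signals. Nearest to *Cldn6* came *Ecel1*, a neuronal peptidase relative (0.16), *Robo2*, an axon guidance receptor (0.18), and *Tubb2b*, a tubulin of young neurons (0.22), where the spread of *Cldn6* itself was 1.40. Because they were picked for likeness over these arrays, their sharing of its split at P5 follows from the choice. In WT *Ecel1* measured 9.43 and 9.15 on replicates 1 and 2 and 9.69 to 9.89 on replicates 3 to 5. In Tg/Tg *Ecel1* measured 9.16 and 9.20, then 9.72 to 10.00.

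Nearest to *Ildr1*, whose spread was 0.37, came *Hey2*, a Notch-responsive repressor of supporting cells (0.0845), *Ebf2* (0.0885) and *Ttc12* (0.0887). Nearest to *Tjp1*, whose spread was 0.41, came *Tcaf1* (0.0470), *Sipa1l1* (0.0490) and *Zfp318* (0.0577). For *Cldn1*, whose own spread was 0.42, *Tmem38b* (0.17), *Cnp*, an enzyme of myelinating glia (0.17), and *Gpr137b-ps* (0.17) were the nearest. At P5 the Tg/Tg values of *Tmem38b* and *Gpr137b-ps* all lay under those of WT. *Cnp* measured 10.18 to 10.50 in Tg/Tg and 11.22 to 11.36 in WT at P5, and 11.55 to 11.58 and 11.37 to 11.43 at P18. For *Cldn14* and *Tjp3*, which varied little, the nearest genes (*Slc39a3*, 0.0590, and *Smagp*, 0.0623) were not much nearer than the spread of the gene itself (0.0820 and 0.11). All of these profiles share the same arrays and tissues, and the genes were picked for likeness over them, so shared patterns follow from the choice.

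**Figure D5:**
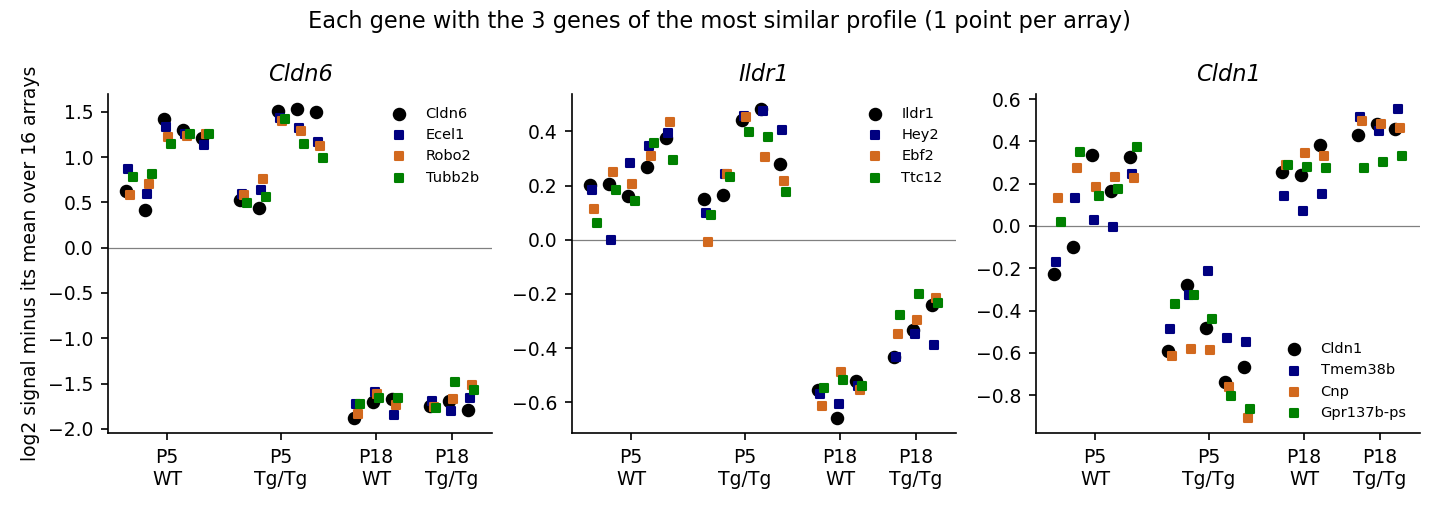
Log2 signal minus the gene's mean over all 16 arrays (y axes) for *Cldn6*, *Ildr1* and *Cldn1* (black) and the 3 genes nearest to each (coloured squares), 1 point per array by group (x axis). *Cldn6* and its nearest genes share a drop from P5 to P18 and lower P5 values on replicates 1 and 2. *Cldn1* and its nearest genes share low values in P5 Tg/Tg. The genes were picked for likeness over these arrays, so the shared patterns follow from that choice.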

How the data were processed

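The authors deposited normalized log2 signals of 16 MoGene 1.0 arrays (34760 probesets, 2.09 to 13.72, 1 array per sample). RNA was column-purified from tissue kept in RNAlater and labelled with biotin. The paper and labels name limma, and background correction and normalization are not given in the sources used here. Samples were grouped by their names. The platform table gives 1 symbol for 21640 probesets and several for 1321. A single limma 3.58.1 fit under R 4.3.3 with 4 group means (lmFit, eBayes, 12 residual and 3.23 prior degrees of freedom) gave two-sided tests, adjusted by Benjamini-Hochberg over all probesets within a comparison and called at an adjusted p under 0.05. It was tested on simulated data first. No probeset was filtered out. The number of arrays limits the precision.

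The 9 genes and all lists were chosen with earlier results of these data known. Named genes were the 9, the 4 other tight junction genes of smallest adjusted p called in each direction with the largest change against the majority, up to 3 such epithelial or adherens junction genes, and the 3 genes nearest in profile. Promoter windows from RefSeq were turned to the gene's strand, which 1668 of 1668 overlapping windows on opposite strands bore out. Alternatives were fold limits, each array left out, each age fitted alone, a replicate block, removal of dim probesets, single-symbol probesets, averaged probesets, repeated quantile normalization, trended robust variances, array weights, and covariates for Y-linked genes and epithelial genes. Omission of P5 replicates 1 and 2, or 3 to 5, was added after seeing the data. Without replicates 1 and 2, sex and genotype are fully confounded at P5. Plots used Python 3.11.15 and matplotlib 3.10.9.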

Additional observations from a re-analysis of the deposited data

Results flagged for a closer look

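*Cldn9* on P5 WT replicate 2 measured 9.64, far from the other 4 WT samples (10.27 to 10.42), with a gap to the nearest of 0.81 of the group's whole range. It was the 1 such sample among 38 gene and group combinations examined. A limit at this level flags about 1 in 20 by chance, and 1 in 38 was flagged here. When arrays were weighted by their quality, this array had a weight of 0.35, where the P5 arrays ran from 0.32 to 1.38. The cause of the low value was not tested. Whether the *Cldn9* change from P5 to P18 in WT passes rests on this sample, as given in the report: the change is larger without it.

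The genotype effect on *Cldn19* differed between the ages, by 2.36 on the log2 scale (P18 minus P5, adjusted p = 1.4e-05 in limma), from -2.03 at P5 to 0.33 at P18. Schwann cell myelin markers moved with it, and their part was not tested.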

How the results depend on the processing

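Calls of the 9 genes at P5 (1, *Cldn1*) went to 0 with a fold of at least 2, with separate fits per age, with the Y-linked covariate and without P5 replicates 3 to 5, and stayed at 1 to 1 with each array left out. At P18 (0) weighting arrays gave 1, and leaving out arrays 0 to 0. For the difference of effects (0), the filter on dim probesets, single-symbol probesets, array weights and omission of P5 replicates 1 and 2 gave 1 each (*Cldn1*), and leaving out arrays 0 to 1. By age in WT (4), a fold of at least 2 left 1, and leaving out arrays gave 3 to 5. *Cldn6*, *Ildr1* and *Tjp1* stayed called lower in every alternative without a fold limit, and *Cldn1* by age was called without P5 replicates 3 to 5 (0.46), as was *Tjp3* (0.25).

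Of the 59 other genes, calls at P5 (1) became 2 with single-symbol probesets, array weights or without P5 replicates 1 and 2, and 1 to 4 with arrays left out, the 4 without Tg/Tg replicate 3. At P18 (0) they became 1 with separate fits, the dim filter, single-symbol probesets, trended robust variances or without P5 replicates 1 and 2, and 5 with array weights, and 0 to 1 with arrays left out. For the difference (1) they became 2 with the dim filter, single-symbol probesets, trended robust variances or the epithelial covariate, 3 without P5 replicates 1 and 2, 5 with array weights, and 1 to 2 with arrays left out. By age (41), folds of at least 1.5 and 2 left 19 and 10, and leaving out arrays gave 37 to 44. No result changed direction and passed.

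With the replicate block, members called at P5 were 0 (*Cldn1* adjusted p = 0.065 in limma, and 0.14 for its difference of effects), and calls over all probesets went from 212 to 139 at P5, 154 to 95 at P18 and 207 to 142 for the difference. Same-numbered samples correlated at 0.29, 0.36, -0.11, 0.20 and -0.22 at P5 and at 0.0004 to 0.069 at P18. At P5 replicates 1 and 2 of each genotype matched best with their own number and replicates 3 to 5 did not. Since not every pair was over 0.1 and no label ties the numbers, they were not taken to pair the samples. The block was not run across ages, nor were separate fits. The cause of these shifts was not tested. Dim signals limit genes near the lower quartile, such as *Cldn13* at P5 and *Cldn17* at both ages.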
